A study of Rattus norvegicus with 10 samples.

Results

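MHC class II molecules present peptides from endocytosed proteins to CD4+ T cells. The genes examined were the 8 named Cd74, RT1-Da, RT1-Db1, RT1-Ba, RT1-Bb, RT1-DMa, RT1-DMb and Ciita, the core of this route in the rat. They were chosen by name, and 7 of the 8 had a probe on the array, with 11 probes between them among 40945 probes tested, which covered 13426 named genes. No probe was matched to RT1-DMb. Livers of 10 male Wistar rats were profiled on 1-colour Agilent whole-genome arrays 24 h after irradiation or at the matching time. There were 3 control rats with no irradiation (0 Gy), 3 rats given total-body irradiation (TBI) of 6.5 Gy from a 60Co source, and 4 rats given MASM and then the same irradiation (MASM + TBI). MASM is a derivative of the plant alkaloid matrine and was given intragastrically at 30 mg/kg per day for 3 days before TBI. The dose of 6.5 Gy is that of the labels, while the study's text names a different one. Age was not stated, no group received MASM alone, and each array carried the liver of 1 rat as far as the labels say.

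In antigen-presenting cells the class II alpha and beta chains pair in the endoplasmic reticulum around the invariant chain, which fills the groove and directs the complex to endosomes. There proteases trim the invariant chain, and the DM heterodimer exchanges its last fragment for a peptide. CIITA is the coactivator that switches these genes on, through an enhanceosome of RFX, CREB and NF-Y that sits on conserved X and Y boxes of each promoter. In the liver, class II is carried mainly by Kupffer cells, dendritic cells and B cells, to a lesser extent by sinusoidal endothelium, and hardly by resting hepatocytes.

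The promoter segments with these boxes are shown because they are the sequence feature that the members share and that the choice by name did not use. RefSeq promoters of GRCr8, which run from 250 bases before to 50 after the annotated start site, were at hand for 6 of the 8 members. In the segments below, written 5′ to 3′ on the strand of the gene, capitals mark matches to CTAGNAAC or ACNGATG (the first and last letters of the X box), to TGACGTCA (a palindromic cyclic AMP element), and to TGATTGG (the Y box), or in Cd74, which has no TGATTGG, to the CCAAT core of that box.
Cd74, chr18:56526956-56527030, + strand: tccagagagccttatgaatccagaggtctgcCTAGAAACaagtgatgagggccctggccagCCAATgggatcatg
RT1-Da, chr20:4515302-4515377, + strand: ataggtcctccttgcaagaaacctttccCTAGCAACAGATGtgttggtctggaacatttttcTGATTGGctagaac
RT1-Db1, chr20:4560231-4560306, - strand: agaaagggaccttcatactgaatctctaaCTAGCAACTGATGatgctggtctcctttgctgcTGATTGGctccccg
RT1-Ba, chr20:4576950-4577025, + strand: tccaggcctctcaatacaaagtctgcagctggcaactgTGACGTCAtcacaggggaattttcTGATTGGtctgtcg
RT1-Bb, chr20:4604168-4604243, - strand: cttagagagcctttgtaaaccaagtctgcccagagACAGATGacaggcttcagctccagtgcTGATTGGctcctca
RT1-DMa, chr20:4712388-4712463, - strand: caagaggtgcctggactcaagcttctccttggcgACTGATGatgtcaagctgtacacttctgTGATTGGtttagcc

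The 5 RT1 promoters each held TGATTGG on the gene's strand, beginning between 82 and 45 bases before the start site. Of 33469 rat promoters of the same length, 7.06% held that Y box on either strand. An X box match of either form lay upstream of it in RT1-Da, RT1-Db1, RT1-Bb and RT1-DMa. RT1-Ba matched neither form as written, and the cyclic AMP element lay upstream of its Y box. Looser forms were not searched, so this does not mean that RT1-Ba lacks an X box. CTAGNAAC was found in 3 of the 6 member promoters and in 3.59% of all promoters, ACNGATG in 4 of 6 and 10.2%, and TGACGTCA in 1 of 6 and 1.83%. In RT1-Da and RT1-Db1 both X box forms matched and overlapped. In Cd74 the X box form began 219 bases before the start site, further upstream than in the RT1 genes. The short core ATTGG, part of TGATTGG, was in all 6 but also in 37.5% of all promoters. An X box form followed within 50 bases by that core on either strand was present in 5 of the 6 and in 1.14% of all promoters. The motifs were written down after reading these sequences, all were searched on both strands, and a match is a description of letters and not of factor binding.

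**Figure D1:**
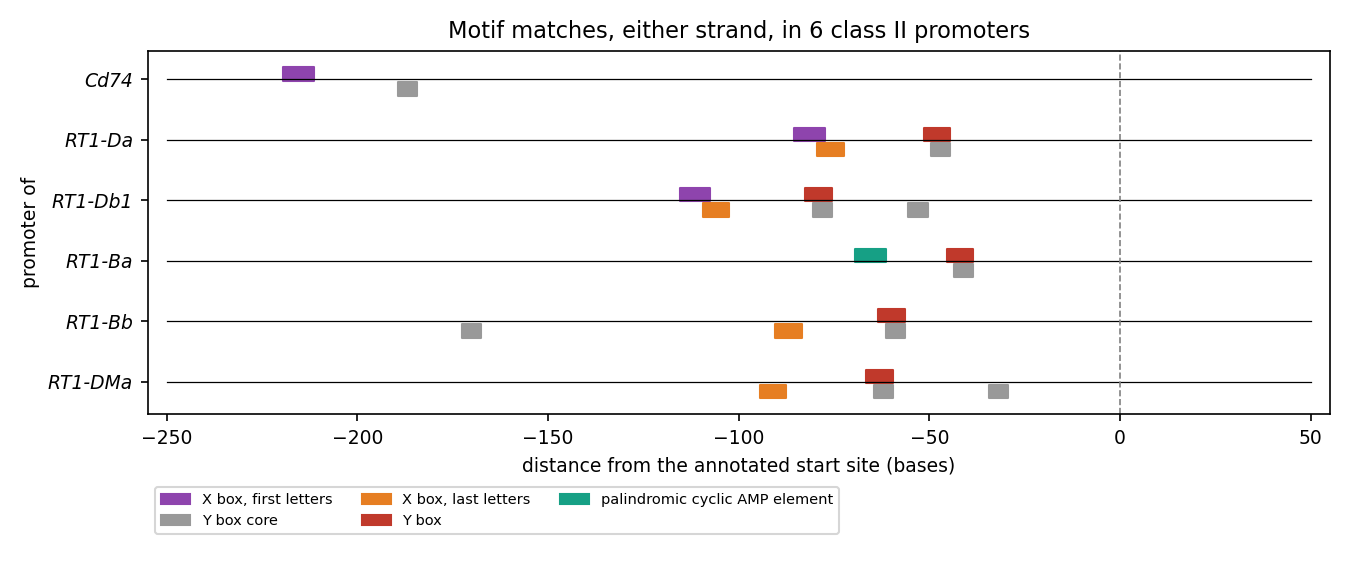
Motif matches in 6 class II promoters. The horizontal axis is the distance in bases from the annotated start site (dashed line), each row is 1 promoter of 300 bases, and coloured blocks are motif matches drawn to scale on either strand. An X box form or the cyclic AMP element lies upstream of each Y box, and the pair sits furthest upstream in Cd74.

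All values below are log2 of the scanner's processed signal after quantile normalisation, a relative scale on which 1 unit is a doubling, and each gene is given by its brightest probe unless stated. Signals of different probes cannot be set against each other as amounts of RNA. The arrays lay on 3 slides. All 3 TBI rats were on the same slide of their own, the control rats shared another with MASM + TBI rat 3, and MASM + TBI rats 1, 2 and 4 were on the remaining one, so TBI and its slide cannot be told apart. Between 56.2% and 70.1% of spots were well above background, with 64.1%, 66.8% and 70.1% in TBI rats 1, 2 and 3. Cdkn1a, the p53 target that arrests the cell cycle, was used to check irradiation. It ranged from 8.01 to 8.84 in control rats, was 13.47, 13.67 and 14.06 in TBI rats 1, 2 and 3 and ranged from 12.80 to 13.58 in MASM + TBI rats, so every irradiated rat, TBI rat 1 included, lay far above the controls. Albumin (Alb), which marks hepatocytes, stayed between 17.57 and 17.89 on all 10 arrays. In whole liver, fewer cells of a type and less RNA per cell cannot be told apart.

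The class II genes split the TBI group. In TBI rats 2 and 3 the classical chains and the invariant chain were about 3 log2 units above the control mean, while in TBI rat 1 they were about 1 unit below it, in the range of the MASM + TBI rats. All 4 MASM + TBI rats lay below all 3 control rats for Cd74, RT1-Da, RT1-Db1 and RT1-Bb. With this spread, limma called 0 of 7 members in any of the 3 comparisons, at adjusted p under 0.05 and a fold change of at least 1.5. Over all probes 4.5% were called in TBI against control, 2.35% in MASM + TBI against control and 1.39% in MASM + TBI against TBI.

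Cd74 encodes the invariant chain. It was 11.84, 12.44 and 12.60 in control rats 1 to 3, 10.86, 15.29 and 15.38 in TBI rats 1 to 3, and 10.84, 11.28, 10.51 and 10.36 in MASM + TBI rats 1 to 4. TBI rats 2 and 3 were above every other rat, TBI rat 1 was below every control rat, and no MASM + TBI rat reached the lowest control. Against the control mean, TBI rats 2 and 3 were 7.95-fold and 8.48-fold higher, TBI rat 1 was 2.71-fold lower, and the MASM + TBI rats were 2.02-fold to 3.82-fold lower.

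RT1-Da encodes the alpha chain of the D molecule, the rat counterpart of human HLA-DR. Its level was 10.41, 10.79 and 10.63 in control rats, 9.36, 13.82 and 14.02 in TBI rats, and 9.37, 9.58, 9.11 and 8.82 in MASM + TBI rats. The order of the groups was that of Cd74, with TBI rat 1 inside the MASM + TBI range. TBI rats 2 and 3 stood 3.21 and 3.41 log2 units above the control mean, and the MASM + TBI rats were 2.04-fold to 3.46-fold below it. A second RT1-Da probe gave 7.46, 7.79 and 7.89 in control rats, 6.36, 11.05 and 11.17 in TBI rats, and 7.08, 7.0, 6.53 and 6.31 in MASM + TBI rats, which is the same pattern.

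RT1-Db1 encodes the beta chain that pairs with RT1-Da. Control rats had 9.83, 10.39 and 10.65, TBI rats 8.98, 13.54 and 13.51, and MASM + TBI rats 8.90, 9.35, 8.61 and 8.35. Again TBI rats 2 and 3 were the highest and the 4 MASM + TBI rats were below all controls. RT1-Db1 has a close paralog, RT1-Db2, and how far each probe separates the pair is not known from the files. A second RT1-Db1 probe ran in parallel, with 9.10, 9.65 and 9.94 in control, 7.81, 12.76 and 13.10 in TBI and 8.36, 8.41, 8.11 and 7.23 in MASM + TBI rats. The third was dim: it was well above background in 1 of 3 control rats, all 3 TBI rats and 1 of 4 MASM + TBI rats, and read 4.53, 9.58 and 8.56 in the TBI rats against at most 4.52 elsewhere. On that probe too, TBI rats 2 and 3 were the high ones.

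RT1-Bb encodes the beta chain of the B molecule, the counterpart of HLA-DQ. Its brightest probe gave 7.97, 9.13 and 8.46 in control, 7.47, 12.04 and 11.79 in TBI and 7.25, 7.55, 7.02 and 7.36 in MASM + TBI rats. The pattern was that of the D chains, 11.5-fold and 9.63-fold above the control mean in TBI rats 2 and 3. The other RT1-Bb probe read 9.88, 10.81 and 11.73 in control rats, 3.15, 2.30 and 13.53 in TBI rats and 8.95, 9.67, 8.64 and 2.35 in MASM + TBI rats. It was not well above background in TBI rats 1 and 2 or in MASM + TBI rat 4, so for TBI rat 2 the probes went opposite ways. Both placed TBI rat 3 above the controls and all MASM + TBI rats below them. RT1-Ba, the alpha chain of the B molecule, was not well above background on any array, ranging from 1.47 to 1.91, and no fold change is given for it.

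RT1-DMa encodes the alpha chain of the DM editor, which works inside endosomes and presents no peptide itself. It was 9.90, 10.32 and 10.37 in control, 10.34, 12.32 and 12.30 in TBI and 9.96, 9.72, 9.64 and 9.91 in MASM + TBI rats. TBI rats 2 and 3 were again high, 4.34-fold and 4.30-fold above the control mean. In contrast to the chains, TBI rat 1 was within the control range, and the MASM + TBI rats overlapped the controls. Ciita was dim, above background on 5 of 10 arrays: 2 control, 2 TBI and 1 MASM + TBI. Its values were 3.83, 4.98 and 4.23 in control, 3.14, 6.07 and 5.63 in TBI and 2.93, 3.64, 3.00 and 3.82 in MASM + TBI rats. Here also TBI rats 2 and 3 were the highest of the 10, and the highest MASM + TBI rat was just below the lowest control.

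**Figure D2:**
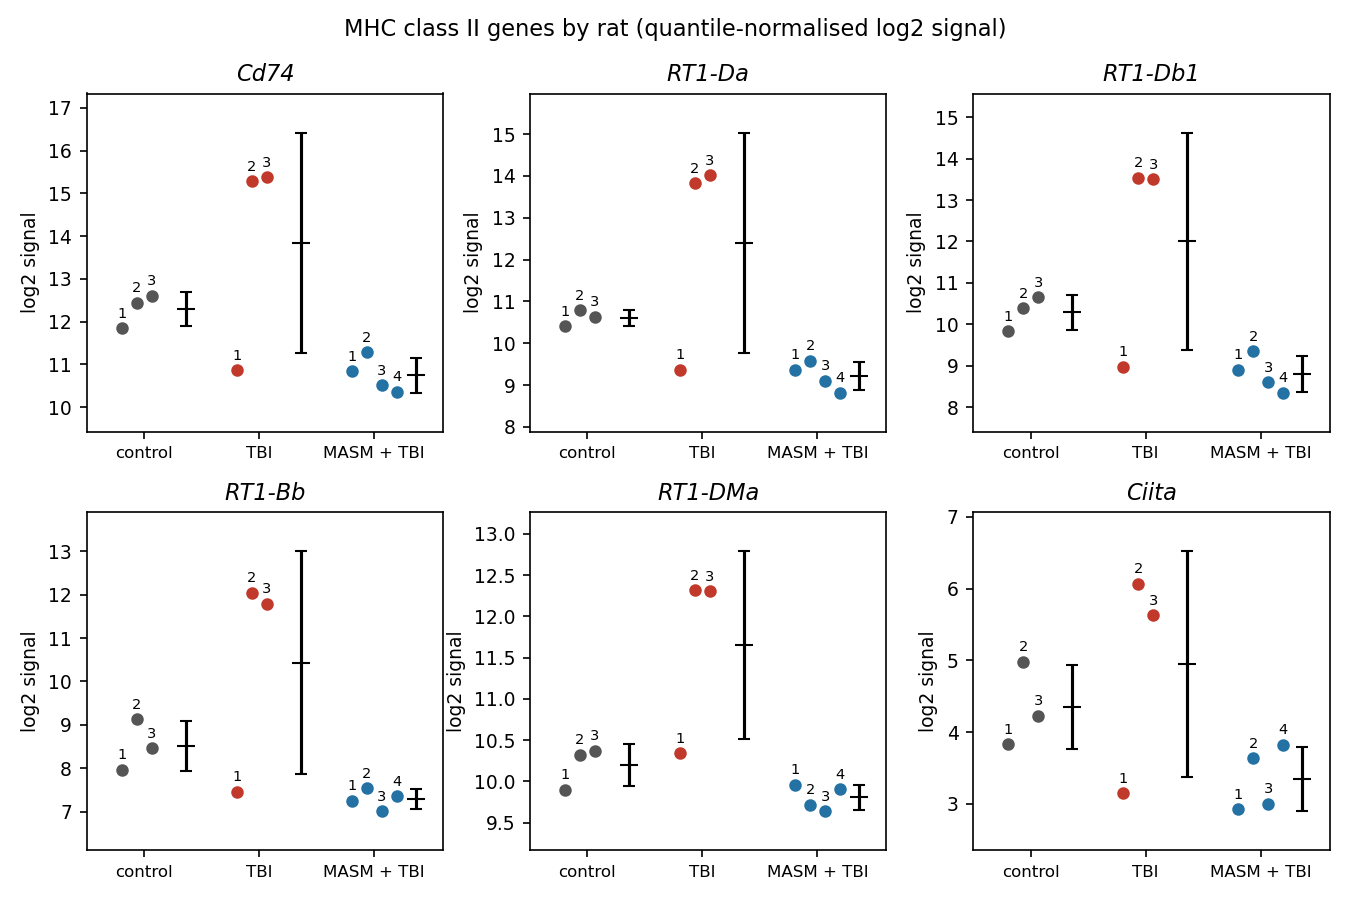
Levels of 6 class II genes in each rat. The vertical axis of each panel is the quantile-normalised log2 signal of the brightest probe (axes do not start at 0 and differ between panels), points are rats with their number, and bars are group mean ± SD (n = 3, 3 and 4). TBI rats 2 and 3 are above all other rats in every panel, and TBI rat 1 lies among the MASM + TBI rats except for RT1-DMa.

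The spread within the TBI group was large for these genes and small elsewhere. The SD over the 3 TBI rats was 2.58 for Cd74, 2.64 for RT1-Da, 2.62 for RT1-Db1 and 2.57 for RT1-Bb, and the median SD over the 21341 probes above background on all arrays was 0.22. Only 7 to 11 of those probes had an SD as large as these 4 genes. For RT1-DMa the SD was 1.14, reached by 1.1% of probes, and for Ciita 1.58. In control and MASM + TBI rats the SD of the 4 genes lay between 0.19 and 0.58. Across all probes the arrays of the TBI rats correlated at r = 0.983 between rats 1 and 2, 0.978 between 1 and 3 and 0.980 between 2 and 3, and pairs within the other groups lay between 0.982 and 0.985. Of the same 21341 probes, 31 were at least 2 log2 units higher in both rats 2 and 3 than in rat 1, and 4 of the class II genes were among them, while 8 probes were as much lower in both. The same step set rat 3 above both others on 22 probes and below them on 57, and rat 2 above on 12 and below on 10.

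In TBI against control, which asks what irradiation did, the group means were higher for 6 of the 7 genes and the median difference was 1.55, against -0.03 over all probes. Cd74 differed by 1.55 ± 1.06 (SE; adjusted p = 0.421), RT1-Da by 1.79 ± 1.07 (adjusted p = 0.351), RT1-Db1 by 1.71 ± 1.08 (adjusted p = 0.380) and RT1-Bb by 1.91 ± 1.06 (adjusted p = 0.317) in limma. The other RT1-Bb probe was well above background in all 3 control rats and in 1 of 3 TBI rats. Against the control mean it stood at -7.66 and -8.51 in TBI rats 1 and 2 and at 2.73 in rat 3. Its fitted difference of -4.48 ± 3.01 thus joins rats that went opposite ways. It includes values near background, so its size is uncertain. As a mean over all probes of the gene, which includes such values, RT1-Bb differed by -1.28 and RT1-Db1 by 2.63. RT1-DMa differed by 1.46 ± 0.47 (adjusted p = 0.112) and Ciita by 0.60 ± 0.71 (adjusted p = 0.647), or by 0.21 with normexp background correction. None passed the test, and 0 of 7 genes were free of overlap between the groups, where 11.3% of all probes were wholly higher and 19% wholly lower. With an unadjusted p under 0.05 from limma and a 1.5-fold change, 1 gene was higher, RT1-DMa, against 6.53% of all probes. At the same thresholds the methods' t-test counted 0 members, against 7.08% of all probes in either direction. The result turned on which TBI rats were in the fit. Without rat 2 the difference of Cd74 was 0.82 and without rat 3 it was 0.78, that of RT1-Da was 1.08 and 0.98, that of Ciita 0.04 and 0.26, and 0 members were called. Without rat 1, 5 genes were called higher (Cd74, RT1-Da, RT1-Db1, RT1-Bb and RT1-DMa) where 2.08% of all probes were, with Cd74 at 3.04 ± 0.31 (adjusted p = 0.00444) and RT1-DMa at 2.11 ± 0.16 (adjusted p = 0.00174). With slide as a random block, RT1-DMa alone was called higher, where 4.93% of all probes were. The estimated slide correlation was -0.13 and the SE narrowed from 0.47 to 0.38, and such a fit cannot adjust TBI for its slide. No TBI rat had a level near the group mean of Cd74, 13.84.

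In MASM + TBI against control, 6 genes had lower means and the median difference was -1.23, against 0.00 over all probes. Cd74 differed by -1.55 ± 0.99 (adjusted p = 0.511), RT1-Da by -1.39 ± 1.00 (adjusted p = 0.560), RT1-Db1 by -1.49 ± 1.01 (adjusted p = 0.531) and RT1-Bb by -1.23 ± 0.99 (adjusted p = 0.621) in limma. As means over all probes of the gene, RT1-Db1 differed by -0.69 and RT1-Bb by -2.31, each with a probe that was near background in some rats, and the dim RT1-Db1 probe by 0.97 ± 1.12. These SEs come from a spread pooled over the 3 groups, so the split TBI group widens them. Ciita differed by -1.0 ± 0.66 (adjusted p = 0.520) and RT1-DMa by -0.39 ± 0.44 (adjusted p = 0.753). No gene passed the test, and 0 were lower by the unadjusted rule in limma, where 4.55% of all probes were. The methods' t-test counted 3 as lower at those thresholds (Cd74, RT1-Da and RT1-Db1), where 3.27% of all probes were. The groups did not overlap for 5 of the 7, all lower, where 8.9% of all probes were. Of these 5, Ciita was separated only by 3.82 against 3.83, with 1 of 4 MASM + TBI arrays above background, so it gives no firm order. With normexp background correction RT1-Bb differed by -0.75 and Ciita by -0.14. Fitted on the control and MASM + TBI rats alone, with the same differences, Cd74 had an SE of 0.28 and an adjusted p of 0.0456 and RT1-Da an SE of 0.20 and an adjusted p of 0.0261, and these 2 were called lower where 1.45% of all probes were. Without TBI rat 1 in the 3-group fit, Cd74, RT1-Da and RT1-Db1 were called lower (adjusted p = 0.0281, 0.0146 and 0.0361), where 1.62% of all probes were. Within the slide that held all control rats, MASM + TBI rat 3 differed from the control mean by -1.79 for Cd74, -1.50 for RT1-Da, -1.69 for RT1-Db1, -1.50 for RT1-Bb, -0.56 for RT1-DMa and -1.35 for Ciita. That rat was thus below the controls on their own slide.

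In MASM + TBI against TBI, which asks whether pretreatment altered the response, the same 6 genes had lower means and the median difference was -3.10, against 0.04 over all probes. Both comparisons with TBI share its 3 rats, and both comparisons with control share the control rats. Cd74 differed by -3.10 ± 0.99 (adjusted p = 0.169), RT1-Da by -3.18 ± 1.00 (adjusted p = 0.161), RT1-Db1 by -3.21 ± 1.01 (adjusted p = 0.163) and RT1-Bb by -3.14 ± 0.99 (adjusted p = 0.162) in limma. The other RT1-Bb probe, near background in 2 of 3 TBI rats, had a fitted difference of 1.08 ± 2.82, which gives no direction, and the mean over both probes was -1.03. Closest to the threshold was RT1-DMa at -1.85 ± 0.44 (adjusted p = 0.0941). By brightest probes it was the only member whose groups did not overlap here, where 5.88% of all probes were wholly lower. The dim RT1-Db1 probe was also wholly lower, at -3.55 ± 1.12 (limma adjusted p = 0.164). Ciita differed by -1.60 ± 0.66 (adjusted p = 0.267), and by -0.35 with normexp background correction. The unadjusted rule in limma counted these 6 genes as lower, where 4.83% of all probes were, and the methods' t-test counted 0 as lower, where 1.99% were. Without TBI rat 1 all 6 were called lower by the adjusted rule, where 1.67% of all probes were, with Cd74 at -4.59 ± 0.30 (adjusted p = 0.00105). Without rat 2 or rat 3 Cd74 was at -2.37 or -2.33, and 0 members were called. With slide as a random block RT1-DMa alone was called lower, where 1.76% of all probes were, and with scaling to the 75th percentile likewise, where 2.2% were. The random block leaves TBI and its slide joined here too. TBI rat 1 itself lay within the range of the MASM + TBI rats for Cd74, RT1-Da, RT1-Db1, RT1-Bb and Ciita.

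**Figure D3:**
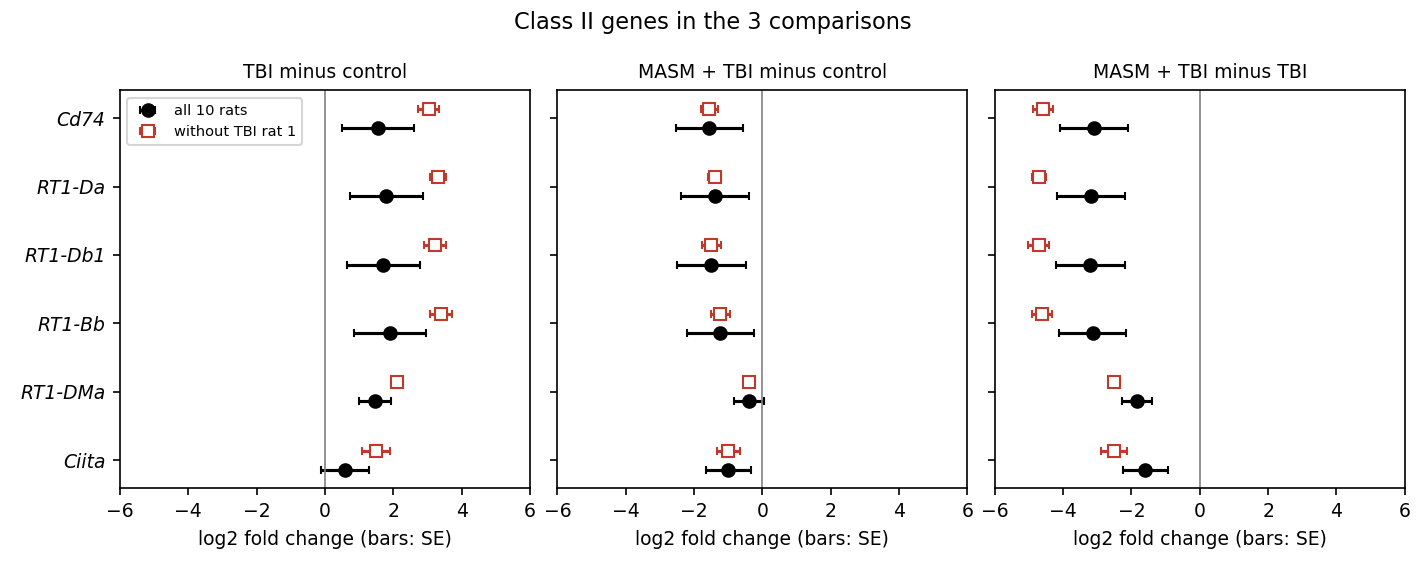
Differences between groups for 6 class II genes. The horizontal axis is the log2 fold change with its SE from limma for the 3 comparisons, filled circles are all 10 rats and open squares the fit without TBI rat 1 (fits without rat 2 or 3, in which 0 members were called, are not drawn). For Cd74 in TBI against control the estimate moves from 1.55 to 3.04 and its SE from 1.06 to 0.31.

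**Figure D4:**
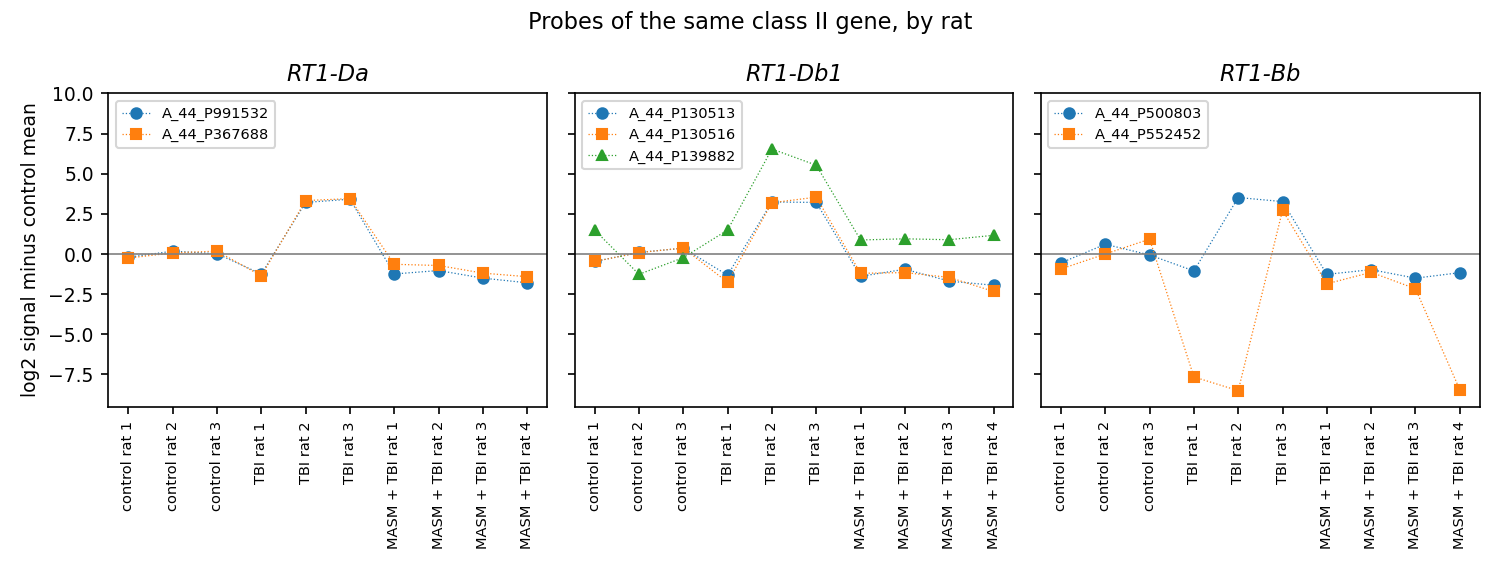
Probes of RT1-Da, RT1-Db1 and RT1-Bb by rat. The vertical axis is the log2 signal minus the mean of the control rats for the same probe, and symbols are probes. Both RT1-Da probes and both bright RT1-Db1 probes run together, while the other RT1-Bb probe drops far below in TBI rats 1 and 2 and MASM + TBI rat 4, where it was not well above background.

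The lists of further pathway genes had smaller medians. Of 16 genes for processing, editing and costimulation, 15 had a probe, 0 were called in any comparison, and the median differences were 0.19 in TBI against control, -0.25 in MASM + TBI against control and -0.41 in MASM + TBI against TBI. By the unadjusted rule 5 of the 15 were lower in the last of these, beside the same 4.83% of all probes. One of them was RT1-Db2, the second D beta gene, with 8.08, 8.70 and 8.97 in control, 7.11, 11.81 and 11.66 in TBI and 7.35, 7.41, 7.09 and 6.40 in MASM + TBI rats. It followed the members rat by rat and differed by as much, 1.61 in TBI against control and -3.13 in MASM + TBI against TBI. RT1-DOa, the alpha chain of the DO modulator of DM, was above background on 3 of 10 arrays and read 2.05, 6.02 and 5.04 in TBI rats 1 to 3 against at most 4.24 elsewhere. Ctss, the cathepsin that makes the last cuts in the invariant chain, was 12.36, 12.99 and 12.64 in control, 12.40, 13.80 and 13.51 in TBI and 12.66, 12.47, 12.21 and 12.30 in MASM + TBI rats. TBI rats 2 and 3 were its highest as well, by less. Ctsl, a general lysosomal cathepsin, stayed between 14.76 and 15.17 in all rats.

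Of 19 genes of class II transcription and its interferon gamma input, 17 had a probe, and their median differences were 0.00 in TBI against control, -0.25 in MASM + TBI against control and -0.20 in MASM + TBI against TBI. Irf1, an interferon-induced factor upstream of Ciita, ranged from 6.54 to 7.10 in control, 6.21 to 6.83 in TBI and 6.20 to 6.44 in MASM + TBI rats and was not called. Of 20 genes of MHC class I presentation, the route for peptides made inside the cell, 17 had a probe and 0 were called. Their median differences were -0.15, -0.59 and -0.25 in the same order of comparisons. B2m, the class I light chain, stayed between 17.33 and 17.95, and Tap1, a peptide transporter subunit, read 8.08, 8.60 and 8.64 in TBI rats 1 to 3 against 8.70 to 9.46 in control rats. Relative to the control mean, the class I medians were -0.61, 0.06 and 0.00 in TBI rats 1, 2 and 3 and from -0.68 to -0.24 in MASM + TBI rats, and -0.48, 0.26 and 0.17 in control rats 1, 2 and 3. TBI rat 1 and control rat 1 were both within the MASM + TBI range.

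Markers of the cells that carry class II were set beside these values. Of 13 Kupffer cell and macrophage markers with a probe, all above background on some array, 0 were called in any comparison, and 9 were lower in MASM + TBI against TBI by the unadjusted rule, where 4.83% of all probes were. Their median difference from the control mean was -0.08, 0.68 and 0.46 in TBI rats 1, 2 and 3 and ranged from -0.56 to -0.24 in MASM + TBI rats, where that of the members was -1.21, 2.99 and 3.08 and from -1.50 to -0.95. In control rats 1, 2 and 3 the macrophage median was -0.39, 0.33 and 0.08. The macrophage list ranked the TBI rats much as class II did, at a smaller size. Its linear signals summed to 101334 to 154820 in control, 106604 to 199540 in TBI and 82824 to 105578 in MASM + TBI rats. A few bright probes such as Clec4f weigh most in these sums. Clec4f, a receptor of Kupffer cells, was 15.16, 16.04 and 15.56 in TBI rats 1 to 3 and 15.27 to 15.73 in control rats. Group means were higher in TBI than in control for 12 of the 13, and 1 was higher by the unadjusted rule, where 6.53% of all probes were. Adgre1 read 9.21, 10.71 and 10.86 in TBI rats 1 to 3 and 8.97 to 9.61 in control rats.

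Dendritic cell markers with a probe numbered 7, 5 of them above background on some array, and 0 were called. Their summed linear signal was 633 to 968 in control, 479, 1798 and 1601 in TBI rats 1 to 3 and 396 to 623 in MASM + TBI rats. Cd83, a maturation marker of antigen-presenting cells, was the brightest of them and read 8.38, 10.59 and 10.48 in TBI rats 1 to 3. On the linear scale that is 334, 1539 and 1431, so the sum is mostly this 1 probe. The list's median difference was only 0.12, 0.20 and 0.06 in those rats. The part of macrophage, dendritic cell or B cell number in the class II values was not tested.

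Some B cell markers were lower after irradiation. Of 13 with a probe, 3 were not above background on any array, and the summed signal was 635 to 768 in control, 290, 495 and 511 in TBI rats 1 to 3 and 258 to 385 in MASM + TBI rats. The sum was thus below the controls in every TBI rat and ranked rat 1 lowest, as class II did. In TBI, 2 were called lower, where 2.49% of all probes were: Fcmr, the IgM Fc receptor, by -3.71 ± 0.36 (limma adjusted p = 0.00176), and Cd79b, a signalling chain of the B cell receptor, at least 4.98-fold. In MASM + TBI, 3 were, beside 1.43% of all probes: Fcmr, Cd79b by at least 2.55-fold, and Fcrla at -2.31 ± 0.39 (adjusted p = 0.0216). Fcmr and Fcrla were each well above background on 1 of 4 MASM + TBI arrays. A bound such as that of Cd79b sets the bright group against the lowest signal well above background on the dim arrays. The members of the list did not run together. Cd79b and Fcmr were low in all 3 TBI rats, whereas Fcrla read 3.95, 5.76 and 5.30, Blk 3.49, 5.84 and 5.22 and Bank1 4.06, 5.62 and 5.60 in TBI rats 1 to 3, with rat 1 lowest. Cd22 read 7.26, 7.72 and 7.96 in TBI rats against 7.06 to 7.16 in control rats, and was not called.

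T cell markers, of which 15 had a probe, were called lower for 5 genes in TBI and 4 in MASM + TBI, beside the same shares of all probes, among them Cd3g, a T cell receptor chain, at -3.60 ± 0.43 (adjusted p = 0.00381) and -3.61 ± 0.40 (adjusted p = 0.00343) in limma. Cd3g was well above background on 2 of 3 TBI and 1 of 4 MASM + TBI arrays, so the size of these differences is uncertain. Cd3e, another of those called, was not well above background on any array. Cd8b differed from control in TBI by 0.78 ± 0.30 (adjusted p = 0.158), and Cd4 differed by 0.71 ± 0.37 (adjusted p = 0.285), neither of them called. In MASM + TBI against TBI, 1 of the 15 was called lower, where 0.625% of all probes were: Cd8b at -2.01 ± 0.28 (limma adjusted p = 0.0135). Markers of sinusoidal endothelium (7 with a probe), bile duct epithelium (4) and hepatocytes (10) had 0 calls. The median hepatocyte difference lay between -0.06 and 0.27 in every rat.

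**Figure D5:**
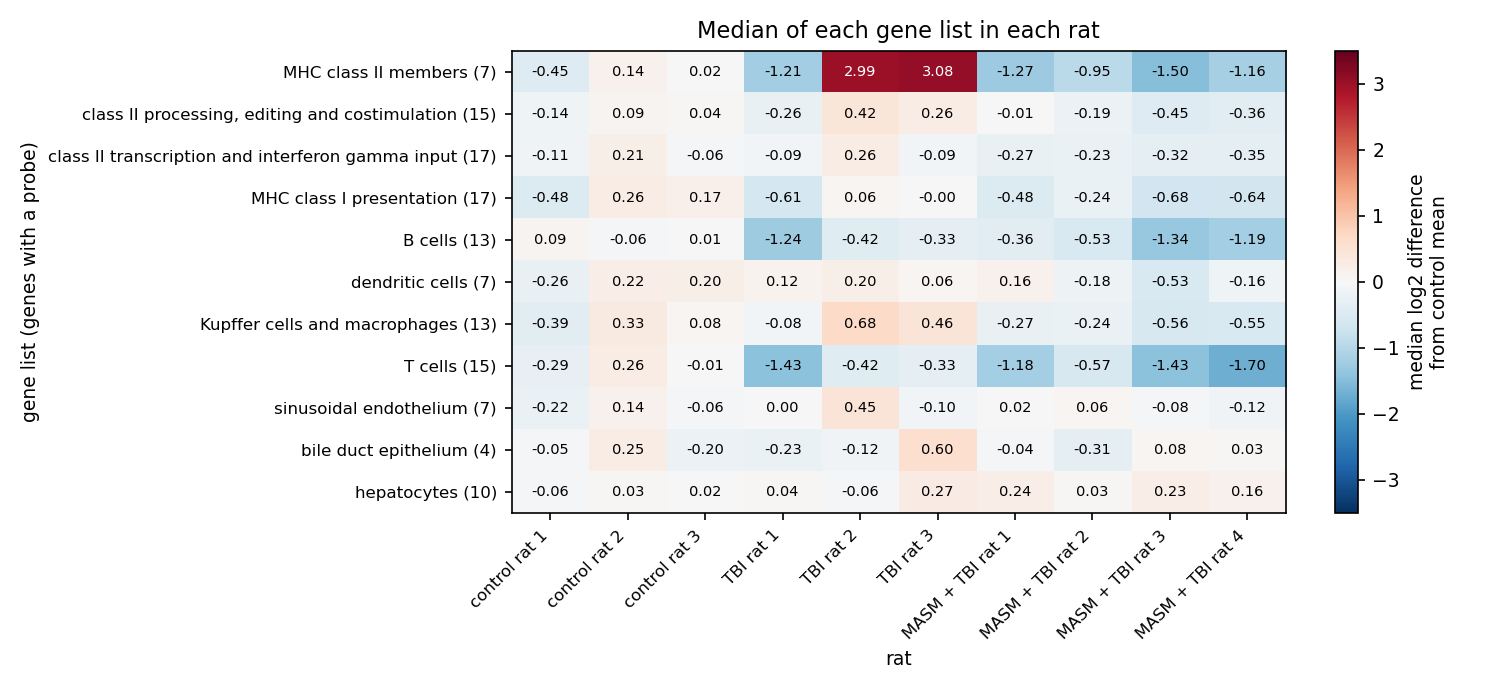
Median log2 difference from the control mean for each gene list in each rat. Rows are lists with the number of genes that had a probe, columns are rats, and colour and printed value give the median. The class II members reach 2.99 and 3.08 in TBI rats 2 and 3 and -1.21 in TBI rat 1, and the macrophage list 0.68, 0.46 and -0.08.

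The genes whose pattern was most like that of the class II members were ranked by Pearson's correlation with the mean of the 5 members above background on all 10 arrays, among 8434 named genes, as a description. The arrays share the groups and the normalisation, and TBI rats 2 and 3 weigh heavily in such a correlation. The first 10 had r from 0.967 to 0.990 and were RT1-Db2, Srgn, Mefv, Vopp1, Klra5, Cd83, Aif1, Folr2, Kcnn4 and Ppt2. In all 10 genes TBI rats 2 and 3 lay above every control rat. Srgn, a proteoglycan core protein of secretory granules, was 9.91, 10.31 and 10.11 in control, 9.65, 11.13 and 11.32 in TBI and 9.81, 9.65, 9.48 and 9.53 in MASM + TBI rats. Mefv, which encodes pyrin, was 7.05, 8.0 and 7.72 in control, 6.81, 9.93 and 9.33 in TBI and 6.76, 6.63, 6.38 and 6.30 in MASM + TBI rats. Aif1, a macrophage gene, was 12.48, 13.69 and 13.58 in TBI rats and 12.30 to 12.97 in control rats. In these 3 genes TBI rats 2 and 3 were the highest of the 10 rats, over a smaller range than in Cd74, and none of the 10 genes was called in any comparison.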

How the data were processed

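Liver RNA of 10 rats was hybridised by the authors to 1-colour Agilent arrays, and the deposited scanner files hold each spot's processed signal as an intensity (Agilent Feature Extraction 10.7, background-subtracted). The authors' value table held the same intensities. Control spots (1639 of 45018) and the 76 to 112 outlier spots per array were left out, no spot was saturated, and spots of a probe were averaged. Signals were taken to log2, quantile normalised as in the study's methods, and fitted with limma 3.58.1 (R 4.3.3) with a mean for each group. P-values were adjusted by Benjamini-Hochberg over 40945 probes, and calls required an adjusted p under 0.05 together with a 1.5-fold change in the brightest probe of the gene (highest mean over the arrays; for RT1-Bb and RT1-Db1 all probes are shown). Probes were named through their accession in the RefSeq gene table. The number of arrays limits the precision, and since the labels do not say more about how replicates arose, p-values measure the spread between these samples. The genes named in the text are the members, called or defining genes of the lists, and the 10 most alike. RT1-Db2, RT1-DOa, Ctss, Blk, Bank1, Cd22, Cd4 and Adgre1 were described after their values were seen. The members and lists were chosen with earlier results of these data known. The script was tested on simulated data. Alternatives were another scaling, background correction, source, filter, test, prior, model, block, probe rule and each rat left out. The 2 members without a promoter entry are not shown by sequence, and RT1-DMb was not analysed here. Some results of the lists are not reported here.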

Additional observations from a re-analysis of the deposited data

Results flagged for a closer look

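Single values were tested for standing apart only in the group of 4, MASM + TBI, since groups of 3 are too small for the limit used. The split of the TBI rats was therefore not tested in this way. In MASM + TBI, 1 value stood apart: the second RT1-Bb probe in MASM + TBI rat 4 read 2.35 (log2 signal), against 8.64 to 9.67 in the other 3 rats of that group, a gap of 0.860 of the group's whole range, above Dixon's 95% limit for 4 samples. Chance passes that limit in about 1 of 20 groups. The probe was not well above background in that rat or in TBI rats 1 and 2, while the first RT1-Bb probe read 7.36 in the same rat, within its group's range of 7.02 to 7.55. The cause of the gap was not tested.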

How the results depend on the processing

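Leaving out 1 rat in turn gave 0 to 5 called members in TBI against control, 0 to 3 in MASM + TBI against control and 0 to 6 in MASM + TBI against TBI, and every count above 0 came from leaving out TBI rat 1. Scaling to the 75th percentile gave 1 call in MASM + TBI against TBI (RT1-DMa), slide as a random block 1 in each comparison with TBI (RT1-DMa in both), the 2 groups per model 2 in MASM + TBI against control, and the unadjusted rule on limma's p-values 1 and 6 in TBI against control and MASM + TBI against TBI. The Welch t-test gave 0, 3 and 0 members at the study's unadjusted threshold (Cd74, RT1-Da and RT1-Db1, all lower), beside 7.08%, 5.75% and 4.03% of all probes in either direction. After Benjamini-Hochberg it gave 0 in each comparison. Of 363 values of single genes under the alternatives, 343 kept their direction and side of the threshold, 19 passed it newly, and 1 reversed: RT1-Bb in TBI against control, -1.28 as the mean over its probes. The cause of that reversal was not tested. Part of the 343 was fixed in advance. The authors' value table held the same intensities, so its fit repeats the main one. Another test or prior, or leaving out a rat of the third group, keeps the estimate and so its direction.

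Same-numbered rats deviated from their group means with correlations from -0.34 to 0.36 over 9 pairs, and not every pair was above 0.1, so the numbers were not taken as pairs. As a hint from the data, 7 of 9 rats correlated best with their own number. With the replicate block, in which MASM + TBI rat 4 has no partner and drops out, the number of called members was 0 in each comparison, and called probes went from 1842 to 1026, 963 to 298 and 570 to 22. Without that rat and with no block they were 1655, 573 and 304. Signals near background limit Ciita, RT1-Ba and the dim probes.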
